A study of Mus musculus with 12 samples.

Results

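The 8 genes described here are the mouse rows of both partners of the NUP98-NSD1 fusion, Nup98 and Nsd1, and of 6 enzymes that write or erase methylation at lysine 36 of histone H3 (H3K36): the methyltransferases Setd2 and Ash1l and the demethylases Kdm2a, Kdm2b, Kdm4a and Kdm4c. They were picked by symbol from 55376 genes in the count table, with earlier results of these data known. All 8 passed the filter on low counts that left 11994 genes to test. The series holds 12 RNA libraries in 4 groups of 3, from cultured mouse bone marrow progenitors labelled c-Kit+/Sca-1+/Lin-. In 3 groups the cells carried NUP98-NSD1 from a retroviral construct: one of these groups also received shNizp1#2, one shNizp1#1 and one a control shRNA, each from a pLKO.1-puro vector. Cells of the fourth group carried the empty MSCV vector and the control shRNA. All groups were kept in RPMI with 20 ng/ml of IL-3, 20 ng/ml of IL-6 and 100 ng/ml of SCF, and all had been selected with geneticin. The sources used here do not give the species of the fusion cDNA or the promoter that drives it, and the labels do not name animals.

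NUP98 is a nucleoporin whose phenylalanine-glycine repeats line the channel of the nuclear pore. NSD1 adds the lower methyl states to H3K36, and the leukaemia fusion joins the repeats of NUP98 to the carboxy-terminal part of NSD1, which holds its catalytic SET domain. SETD2 adds the trimethyl state in the bodies of transcribed genes, ASH1L the lower states. KDM2A and KDM2B remove the lower states, and KDM4A and KDM4C remove the trimethyl state from H3K36 and from lysine 9 of the same histone. Nizp1 (Zkscan17 in the count table) is a zinc finger protein that binds NSD1.

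Total counts ran from 3586538 to 6842589 per library. Zkscan17 was at 24.5 ± 6.08 CPM with shNizp1#2 and 30.5 ± 4.37 CPM with shNizp1#1, against 57.9 ± 7.42 CPM with the fusion and control shRNA and 63.1 ± 5.69 CPM with empty vector (SD, n = 3 each). CPM are counts relative to the TMM-scaled size of the library over tested genes. Over the control shRNA with the fusion, Zkscan17 was called lower with both shRNAs when the replicate number was a block (adjusted p = 0.000290 with shNizp1#2 and 0.00198 with shNizp1#1 in edgeR), and not without it (0.228 and 0.490). Its exons share 616 bases with 4933439C10Rik on the opposite strand. Summed markers of mast cells (8 genes) were high in every library, from 37970 to 50530 CPM with shNizp1#2, from 37750 to 48180 CPM with shNizp1#1, from 41410 to 56250 CPM with the fusion and control shRNA, and from 44030 to 61100 CPM with empty vector. The 4 stem and progenitor markers (Cd34, Flt3, Ly6a and Meis1) summed to between 1297 and 2455 CPM, most of it from Cd34. Group means ran from 1233 to 1652 CPM for Cd34 and from 1.06 to 1.78 CPM for Flt3, with Ly6a and Meis1 in between. In such bulk RNA, fewer cells of a type and less RNA per cell cannot be told apart. Libraries that carry the same replicate number in the labels deviated from their group means together. Each comparison was fitted with edgeR's quasi-likelihood test both without the number and with it as a block. "Called" means a Benjamini-Hochberg adjusted p under 0.05 over all tested genes, and "experiment" stands for the 4 libraries with 1 number, which is an inference from these correlations. How many of all tested genes had groups that do not overlap was not counted, so non-overlap is given as a description only.

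In mm10 (coordinates of the deposited table, identical in GENCODE vM21), Nsd1 spans 55209782 to 55318325 on the plus strand of chromosome 13, and Nup98 spans 102119398 to 102210176 on the minus strand of chromosome 7. Setd2 lies at 110532597 to 110618633 on chromosome 9 (plus), Ash1l at 88950622 to 89079375 on chromosome 3 (plus). Kdm2a lies at 4314419 to 4398285 on chromosome 19 (minus) and Kdm2b at 122870665 to 122989823 on chromosome 5 (minus). Chromosome 4 holds both Kdm4 genes, Kdm4a at 118136957 to 118180043 (minus) and Kdm4c at 74242497 to 74405860 (plus). Counts cover the merged exons, untranslated regions included, from 4340 bases for Kdm4c to 13636 bases for Nsd1. Nup98, Nsd1, Setd2, Kdm2a, Kdm4a and Kdm4c share no exon base with another gene of the table and no 75-base word with another gene's transcripts. Kdm2b does: 627 of its exon bases lie opposite exons of Rnf34, 199 opposite A930024E05Rik and 124 on the same strand as Gm44574, and 11.4% of its 75-base words occur in transcripts of other genes. Ash1l shares 35 exon bases with Dap3 on the opposite strand, and 1.503% of its words. Of the Kdm2b words, 4.963% occur in Rnf34 on the opposite strand and 4.856% in Gm12397 in the same orientation. The sources used here do not give the strand setting of the counting, and no strand setting would separate the words shared with Gm12397. The Kdm2b values are therefore uncertain.

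Nsd1 counts were high in every library with the fusion. They stood at 711, 598 and 791 CPM with shNizp1#2, at 807, 966 and 907 CPM with shNizp1#1 and at 788, 699 and 745 CPM with the control shRNA, against 185, 230 and 139 CPM with empty vector (replicates 1, 2 and 3). The lowest of the 9 fusion libraries (598 CPM) lay above the highest empty-vector library (230 CPM), so the groups did not overlap. Nup98 counts followed the same order of groups. They were 305, 255 and 259 CPM with shNizp1#2, 361, 408 and 288 CPM with shNizp1#1 and 286, 319 and 241 CPM with the control shRNA, against 124, 161 and 103 CPM with empty vector. Again no fusion library fell among the empty-vector ones. These are counts assigned to the mouse genes, and reads of the construct may be among them. The table does not separate construct reads from those of the endogenous genes.

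**Figure D1:**
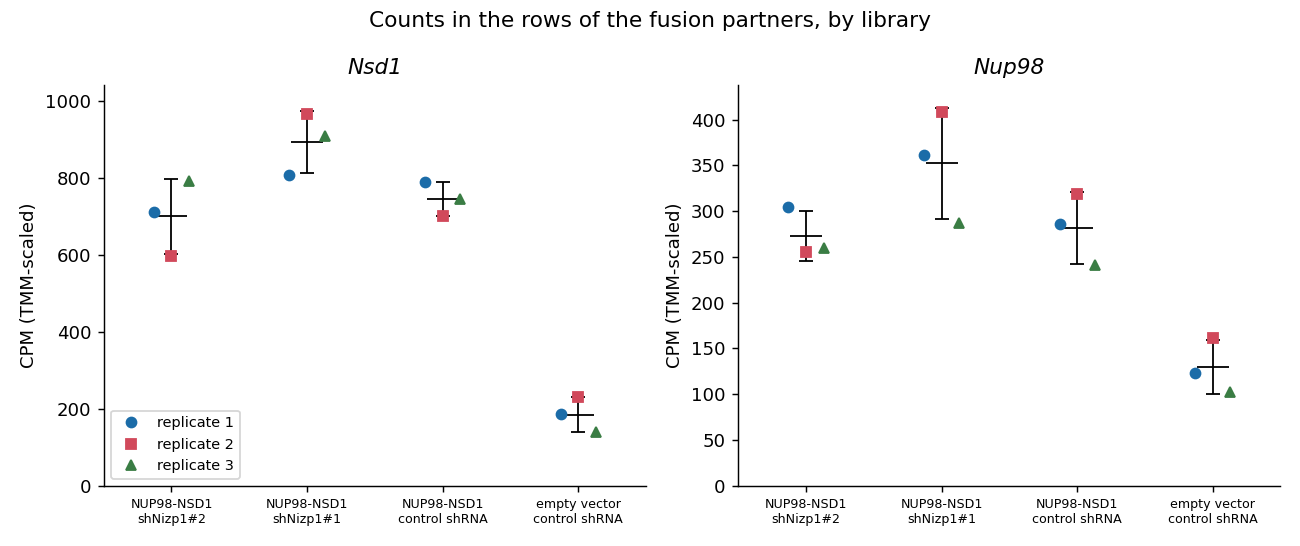
CPM (TMM-scaled, y axis from 0) in the Nsd1 row (left) and the Nup98 row (right) for the 4 groups, 1 point per library, marker shape and colour by replicate number, horizontal bars and whiskers for the mean ± SD (n = 3). All 9 fusion libraries sit above the 3 empty-vector libraries in both panels.

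NUP98-NSD1 was compared with empty vector, both under the control shRNA. For Nsd1 and Nup98 this comparison does not separate a change of the endogenous gene from reads of the construct. Nsd1 averaged 744 ± 44.4 CPM with the fusion and 185 ± 45.6 CPM with empty vector (SD, n = 3 each), and was 4.02-fold higher (log2 2.01, SE 0.18, adjusted p = 0.00375 in edgeR). Nsd1 was the 1 member called without the replicate block, and it was also the 1 gene called among all tested, which is 0.00834% of them. Nup98 averaged 282 ± 39.3 CPM with the fusion and 129 ± 29.5 CPM with empty vector, 2.18-fold higher (log2 1.13, SE 0.19, adjusted p = 0.604 in edgeR without the block). With the replicate block Nup98 was called as well, at log2 1.14 (SE 0.12, adjusted p = 0.000398 in edgeR), beside Nsd1 at 2.01 (SE 0.17, adjusted p = 0.000490). That fit called 0.275% of all tested genes. Both genes were higher in 3 of 3 experiments. The blocked calls stood without any single library of either group. Without experiment 1 neither was called (adjusted p = 0.0755 for each in edgeR), and without experiment 3 Nup98 was not (adjusted p = 0.0597). A fit on the 6 libraries of these groups alone, unblocked, called neither (adjusted p = 0.132 for Nsd1).

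Nsd1 was called higher than with empty vector in both Nizp1 shRNA groups too, and Nup98 with the block. With shNizp1#2 over empty vector, the log2 fold change was 1.92 for Nsd1 (SE 0.18, adjusted p = 0.00285 in edgeR) and 1.08 for Nup98 (SE 0.19, adjusted p = 0.190). With shNizp1#1 over empty vector it was 2.27 for Nsd1 (SE 0.19, adjusted p = 0.00117) and 1.45 for Nup98 (SE 0.19, adjusted p = 0.0686). Nsd1 was thus 1 of 8 members called in each, where 0.0167% of tested genes were called with shNizp1#2 and 0.00834% with shNizp1#1. The block added Nup98 in both, with adjusted p = 0.000238 with shNizp1#2 and 5.37e-05 with shNizp1#1, in edgeR fits that called 2.31% and 3.45% of tested genes. These 3 comparisons share the empty-vector libraries, so they do not repeat each other independently. In all 3, reads of the construct may be among the Nsd1 and Nup98 counts.

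Counts in the Nsd1 row exceeded those in the Nup98 row in every library, and by more in libraries with the fusion. The ratio of Nsd1 counts to Nup98 counts within a library, which no scaling between libraries affects, was 2.33, 2.34 and 3.05 with shNizp1#2, 2.24, 2.37 and 3.16 with shNizp1#1 and 2.76, 2.19 and 3.09 with the control shRNA, against 1.499, 1.43 and 1.35 with empty vector. Means were 2.58 ± 0.412, 2.59 ± 0.497 and 2.68 ± 0.455 in those fusion groups and 1.43 ± 0.0735 with empty vector (SD, n = 3 each). No fusion library overlapped the empty-vector range. The 2-sided exact permutation test gave p = 0.1 for each fusion group against empty vector, the smallest p that 3 against 3 libraries allow. Replicate 3 had the highest ratio in all 3 fusion groups and the lowest among the empty-vector libraries. Taking the empty-vector library of the same number away from each fusion library left 367 to 768 CPM for Nsd1 and 93.9 to 247 CPM for Nup98, and the ratio of these differences ran from 2.62 to 4.39.

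**Figure D2:**
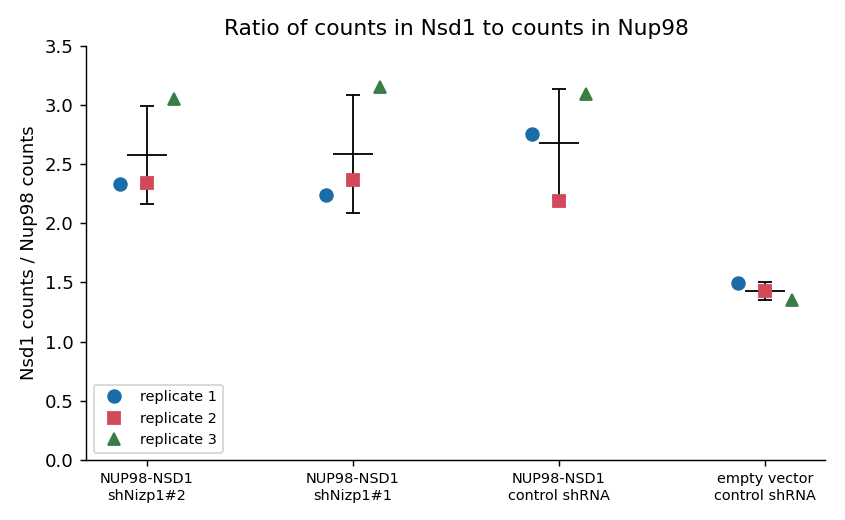
Counts in the Nsd1 row divided by counts in the Nup98 row of the same library (y axis from 0), for the 4 groups, with 1 point per library and the mean ± SD (n = 3). The 9 fusion libraries lie between 2.19 and 3.16, and the 3 empty-vector libraries between 1.35 and 1.499.

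The Nizp1 shRNAs were compared with the control shRNA in cells with the fusion. With shNizp1#1, Nsd1 averaged 894 ± 80.6 CPM, against 744 ± 44.4 CPM with the control shRNA, and every shNizp1#1 library lay above every control library. The log2 fold change was 0.26 (SE 0.18) and not called (adjusted p = 1.00 in edgeR, and 0.587 with the block). Nup98 averaged 352 ± 60.7 CPM with shNizp1#1 and 282 ± 39.3 CPM with the control shRNA, at log2 0.32 (SE 0.19, adjusted p = 1.00 in edgeR, and 0.233 with the block), with overlapping groups and the higher value in 3 of 3 experiments. With shNizp1#2, the log2 fold changes were -0.09 for Nsd1 (SE 0.18) and -0.05 for Nup98 (SE 0.19), at 700 ± 97.3 and 273 ± 27.5 CPM with shNizp1#2, and both groups overlapped the control. Between the shRNAs, shNizp1#2 over shNizp1#1 gave -0.35 for Nsd1 (SE 0.18) and -0.37 for Nup98 (SE 0.19), lower in 3 of 3 experiments and not called in edgeR (adjusted p = 0.357 and 0.137 with the block). The ratio of Nsd1 to Nup98 counts overlapped the control in both shRNA groups, at 2.58 ± 0.412 with shNizp1#2 and 2.59 ± 0.497 with shNizp1#1, against 2.68 ± 0.455 with the control shRNA (SD, n = 3 each). The exact permutation test gave p = 0.9 with shNizp1#2 and p = 1 with shNizp1#1. It cannot go below 0.1 at this size and does not use the pairing, so it does not show that the ratios were alike. None of the 8 members was called in these 3 comparisons by edgeR, DESeq2 or limma-voom, with or without the block. At an unadjusted p under 0.05 there were 0 of 8 in each without the block. With it, Ash1l and Kdm2a reached that p with shNizp1#2, Kdm2b and Nup98 with shNizp1#1, and Nup98 between the shRNAs. Of the 11994 tested genes, 1331, 1479 and 1779 reached it with the block with shNizp1#2, with shNizp1#1 and between the shRNAs, so 1 or 2 of 8 members are near that background. The share of all tested genes called without the block was 0.00834% with shNizp1#2, 0% with shNizp1#1 (480 genes at an unadjusted p under 0.05) and 0.00834% between the shRNAs, and with it 0.217%, 1.63% and 2.37%.

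**Figure D3:**
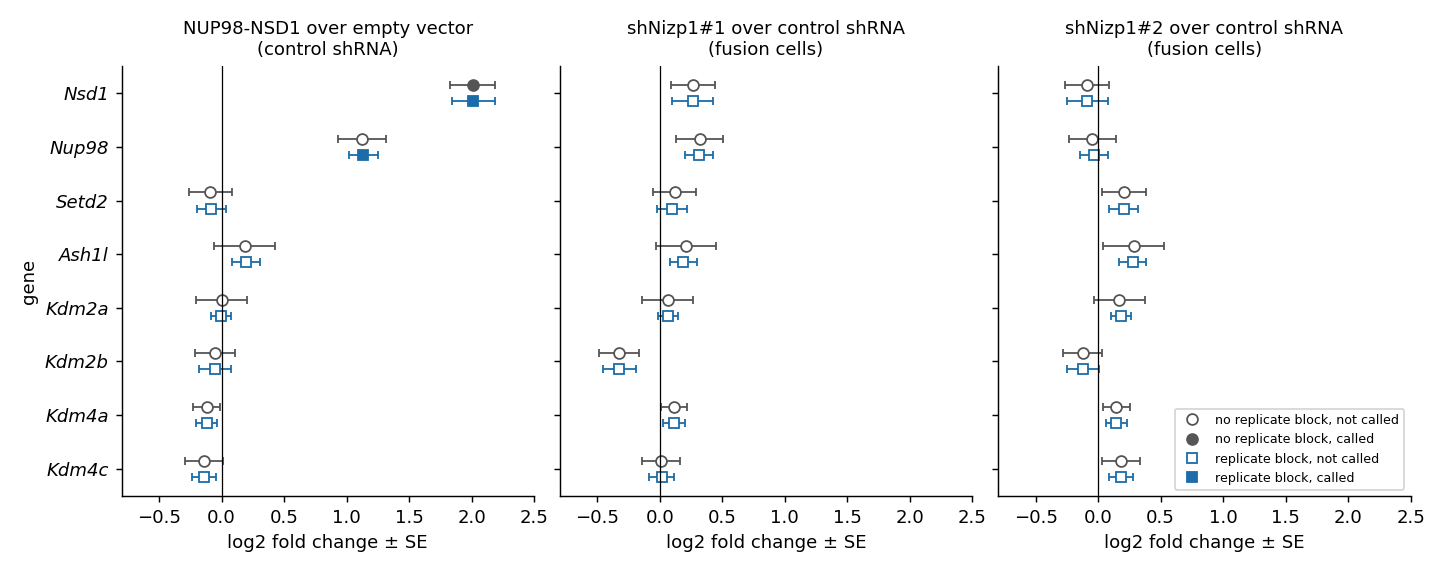
log2 fold change ± SE (x axis) of the 8 genes in 3 comparisons, from edgeR without (grey circles) and with (blue squares) the replicate block, filled where called. Filled symbols appear for Nsd1 and Nup98 in the fusion panel, Nup98 with the block alone, and for no gene in the shRNA panels.

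The order of the genes by level differed between fusion and empty-vector groups. Levels per length are given as RPKM, CPM divided by the merged exon length in kilobases. With shNizp1#2, shNizp1#1 and the control shRNA, Nsd1 was the highest of the 8 (51.3 ± 7.13, 65.5 ± 5.91 and 54.6 ± 3.26 RPKM), then Nup98 (33.3 ± 3.36, 43.0 ± 7.41 and 34.4 ± 4.80 RPKM), then Kdm4a (29.6 ± 1.72, 28.9 ± 2.43 and 26.7 ± 1.67 RPKM), with no overlap between neighbours in this order. With empty vector Kdm4a was the highest at 29.0 ± 1.57 RPKM. Nup98 (15.8 ± 3.60 RPKM), Setd2 (14.2 ± 2.15), Kdm2a (13.8 ± 2.46), Nsd1 (13.6 ± 3.34) and Kdm4c (12.0 ± 1.65) followed with overlapping neighbours. Kdm2b was next at 8.37 ± 1.46 RPKM, and Ash1l was the lowest of the 8 at 3.68 ± 0.831 RPKM. Ash1l was also the lowest in the 3 fusion groups, at 5.09 ± 1.07, 4.85 ± 1.48 and 4.18 ± 0.648 RPKM, where its range overlapped that of Kdm2b with shNizp1#1 alone. For Nsd1 and Nup98 these RPKM divide any construct reads by the length of the whole mouse gene.

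Neither of the methyltransferases Setd2 and Ash1l was called with the fusion over empty vector under the control shRNA (adjusted p = 1.00 each in edgeR, and 0.845 and 0.545 with the block). Setd2 stood at 128, 141 and 117 CPM with shNizp1#2, at 117, 151 and 94.6 CPM with shNizp1#1 and at 103, 118 and 113 CPM with the control shRNA, against 99.5, 135 and 121 CPM with empty vector. All 4 ranges overlapped. Its log2 fold change was -0.09 (SE 0.17) with the fusion over empty vector, and over the control shRNA it was 0.21 with shNizp1#2 and 0.12 with shNizp1#1 (SE 0.17 each). Ash1l stood at 54.0, 73.4 and 50.3 CPM with shNizp1#2, at 48.5, 76.2 and 44.6 CPM with shNizp1#1 and at 48.4, 56.3 and 41.2 CPM with the control shRNA, against 36.7, 54.0 and 37.8 CPM with empty vector. Within each experiment all 3 fusion libraries exceeded the empty-vector library, although the group ranges overlapped.

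Ash1l was the 1 enzyme called in any of the 6 comparisons, and it was called in 1. With shNizp1#2 over empty vector its log2 fold change was 0.47 (SE 0.11, adjusted p = 0.0363 in edgeR with the block), from 59.2 ± 12.4 CPM with shNizp1#2 and 42.8 ± 9.67 CPM with empty vector, higher in 3 of 3 experiments. With Nsd1 and Nup98, whose rows may hold construct reads, that made 3 of 8 members called, where 2.31% of tested genes were. Ash1l was the only enzyme among them. DESeq2 and limma-voom with the block called it too, and the fit without the block did not (adjusted p = 0.909). Leaving out any 1 of the 6 libraries ended the call, with adjusted p between 0.0646 and 0.144, at log2 fold changes between 0.42 and 0.51. Summed neutrophil markers ran from 5.43 to 1232 CPM with shNizp1#2 and from 2.39 to 1760 CPM with empty vector, and those of monocytes and macrophages from 487 to 3439 CPM with shNizp1#2 and from 89.9 to 1913 CPM with empty vector. Their part in the Ash1l difference was not tested. With shNizp1#1 over empty vector the blocked value was 0.38 (SE 0.11, adjusted p = 0.0718), and with the fusion under the control shRNA 0.19 (SE 0.11, adjusted p = 0.545). Over the control shRNA it was 0.28 with shNizp1#2 (SE 0.11, adjusted p = 0.350) and 0.19 with shNizp1#1 (SE 0.11, adjusted p = 0.535), all from the same blocked edgeR fit.

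None of the 4 demethylases was called in any comparison, in edgeR, DESeq2 or limma-voom with or without the block. At an unadjusted p under 0.05 in edgeR there was Kdm2b for shNizp1#1 over empty vector without the block. With it, Kdm2b reached that p for shNizp1#1 over the control shRNA and over empty vector, and Kdm2a for shNizp1#2 over the same groups. In the blocked fit, 2134 of 11994 tested genes reached that p for shNizp1#1 over empty vector and 2253 for shNizp1#2 over empty vector. Over the control shRNA, 1479 did with shNizp1#1 and 1331 with shNizp1#2. Without the block, 749 did for shNizp1#1 over empty vector. Kdm2a was at 151 ± 23.1, 140 ± 28.6 and 134 ± 29.1 CPM in the fusion groups with shNizp1#2, shNizp1#1 and the control shRNA, against 134 ± 23.9 CPM with empty vector (SD, n = 3 each). Kdm4a was at 149.5 ± 8.67, 146 ± 12.3 and 135 ± 8.47 CPM, against 147 ± 7.95 CPM with empty vector. Kdm4c was at 53.7 ± 7.10, 47.6 ± 4.52 and 47.3 ± 5.89 CPM, against 52.2 ± 7.18 CPM with empty vector. All group ranges of these 3 genes overlapped. Over the control shRNA, the log2 fold changes with shNizp1#2 were 0.17 for Kdm2a (SE 0.20), 0.15 for Kdm4a (SE 0.11) and 0.18 for Kdm4c (SE 0.15), each positive in 3 of 3 experiments. With shNizp1#1 they were 0.06, 0.11 and 0.01.

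Kdm2b, which also recruits a Polycomb complex to CpG islands, had its lowest values with shNizp1#1. It stood at 43.2, 40.0 and 46.8 CPM with shNizp1#2, at 37.6, 36.003 and 39.2 CPM with shNizp1#1 and at 41.6, 43.99 and 56.1 CPM with the control shRNA, against 39.7, 56.5 and 51.0 CPM with empty vector. No shNizp1#1 library overlapped any other group, but the highest, at 39.2 CPM, lay close to the lowest with empty vector, at 39.7 CPM. The log2 fold change of shNizp1#1 over the control shRNA was -0.33 (SE 0.16, adjusted p = 1.00 in edgeR), and -0.32 with the block (SE 0.13, adjusted p = 0.318). Over empty vector shNizp1#1 gave -0.38 with the block (SE 0.13, adjusted p = 0.144). Between the shRNAs, shNizp1#2 over shNizp1#1 gave 0.21 (SE 0.16). With the fusion over empty vector Kdm2b was at -0.05 (SE 0.16), and with shNizp1#2 over the control shRNA at -0.12 (SE 0.16), both with overlapping groups.

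**Figure D4:**
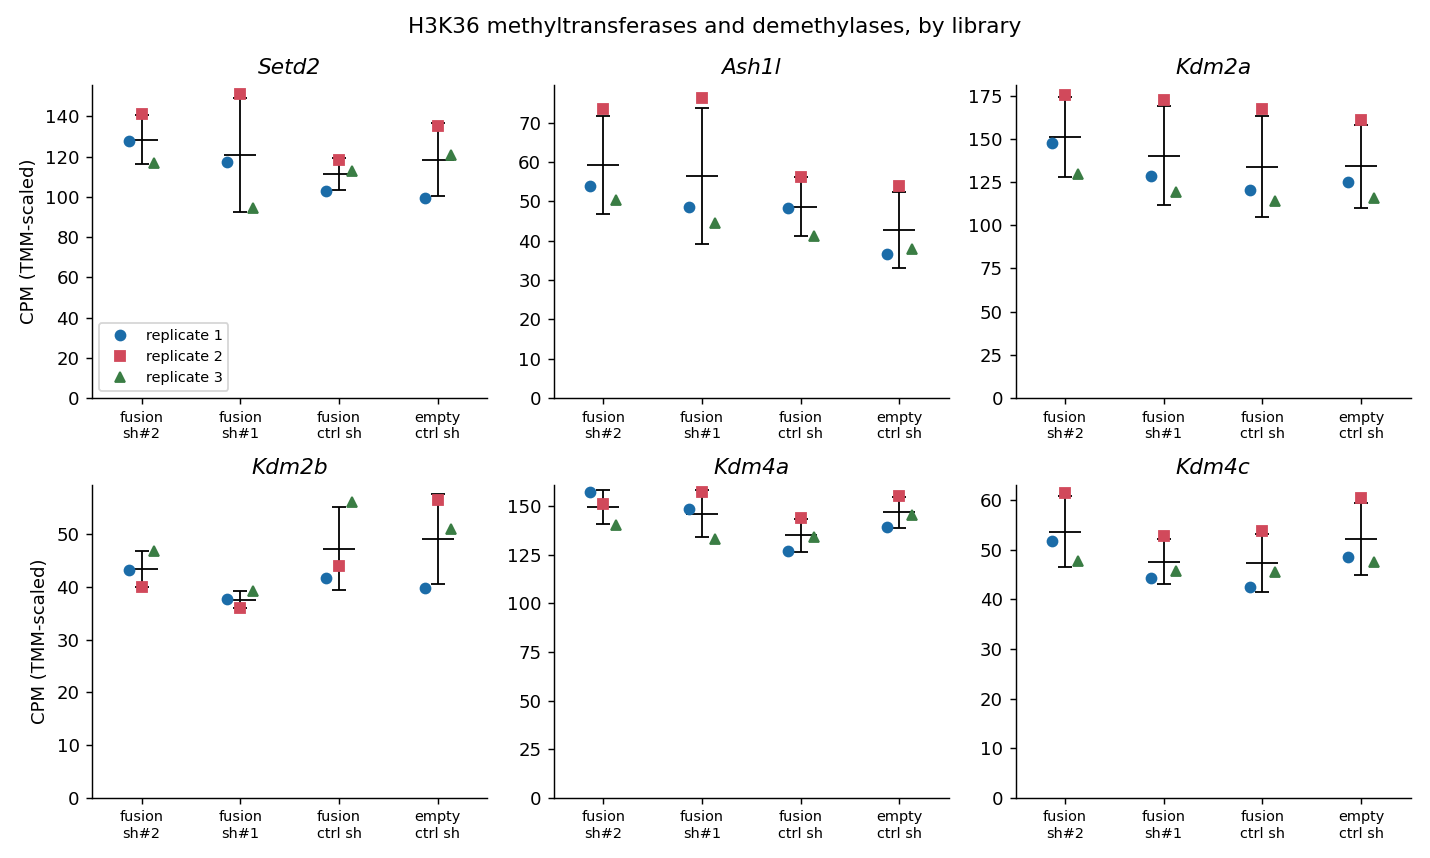
CPM (TMM-scaled, y axes from 0) of the 6 enzymes in the 4 groups, 1 point per library by replicate number, with the mean ± SD (n = 3). Replicate 2 is the highest point of all 4 groups for Setd2, Ash1l, Kdm2a and Kdm4c, and the shNizp1#1 points of Kdm2b lie below those of the other groups.

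For 4 of the 6 enzymes the replicate number held more of the variance than the group did. Of the variance of log2(CPM + 1) over the 12 libraries, the group accounted for 96.2% in Nsd1 and 88.6% in Nup98, and the replicate number for 0.122% and 7.55%. In Kdm2a the group accounted for 10.2% and the number for 87.6%. The number also held the larger share in Kdm4c (70.7% against 23.6% for the group), Ash1l (61.7% against 32.6%) and Setd2 (50% against 14.2%). In Kdm4a both held 34.3%, and in Kdm2b the group held 46.8% and the number 22.8%. The medians over all tested genes were 20.6% for the group and 48.7% for the number. Experiment 2 was the highest of the 3 in 4 of 4 groups for Setd2, Ash1l, Kdm2a and Kdm4c, and in 3 of 4 groups for Kdm4a. Kdm2a averaged 169 CPM in experiment 2, and 130 and 120 CPM in experiments 1 and 3. Experiment 2 also had the highest summed markers of neutrophils (7 genes, 731 to 1802 CPM, against 189 to 452 in experiment 1 and 0.972 to 5.43 in experiment 3). Summed markers of monocytes and macrophages (5 genes) ran from 1913 to 3439 CPM in experiment 2, against 771 to 1481 in experiment 1 and 89.9 to 1116 in experiment 3. Their part in the enzyme levels was not tested.

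**Figure D5:**
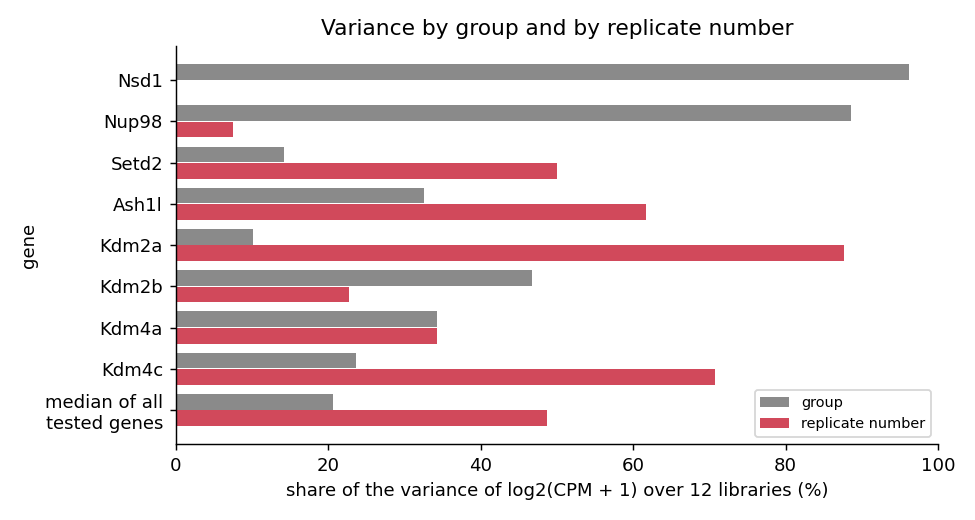
Share of the variance of log2(CPM + 1) over 12 libraries (x axis, %) held by the group (grey) and by the replicate number (red), for the 8 genes and as the median of all tested genes. The group bar is the longer one for Nsd1, Nup98 and Kdm2b, the number bar for Setd2, Ash1l, Kdm2a and Kdm4c, and both are 34.3% for Kdm4a.

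Likeness of pattern was measured as Pearson's r of log2(CPM + 1) over the 12 libraries, which share depth, group and experiment, as a description. The gene most like Nsd1 among tested genes, leaving out predicted and clone names, was Nup98, and the reverse held too (r = 0.954, and 0.555 over the 9 fusion libraries alone). Reads of the construct may be counted in both rows. After Nup98, Nsd1 was most like Il2ra, a chain of the interleukin-2 receptor (r = 0.925), and Slk, a serine/threonine kinase (r = 0.917). Nup98 was next most like Dnajc1 (r = 0.914) and Ttc41 (r = 0.869). The nearest genes of the enzymes were Cybc1 for Setd2 (r = 0.907), H2-DMb1 for Ash1l (r = 0.954) and Mxd1, a MAX-binding repressor, for Kdm2a (r = 0.976). For Kdm2b it was Kat14 (r = 0.9), for Kdm4a Il17ra, a receptor chain for interleukin-17 (r = 0.862), and for Kdm4c Inpp1 (r = 0.938). With the experiment means taken out, r was 0.983 between Nsd1 and Nup98, 0.819 between Kdm2a and Mxd1 and 0.877 between Ash1l and H2-DMb1.

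Among the 5 other H3K36 methyltransferases (Nsd2, Nsd3, Setmar, Smyd2 and Prdm9), 0 were called in any of the 6 comparisons, with or without the block. With the fusion over empty vector their median log2 fold change was 0.11, beside 0.01 over all tested genes, with 0 of 5 at an unadjusted p under 0.05. Smyd2, the highest of them per length, was at 35.0 ± 13.6, 38.9 ± 12.8 and 44.7 ± 12.7 CPM with shNizp1#2, shNizp1#1 and the control shRNA, against 41.4 ± 7.55 CPM with empty vector. Nsd3, a close relative of Nsd1, was at 139.8 ± 38.2, 133 ± 37.8 and 128 ± 32.9 CPM, against 129 ± 19.1 CPM with empty vector. All 4 ranges overlapped for both genes. In the other comparisons at most 1 of 5 reached an unadjusted p under 0.05, with the block alone. It was Smyd2 for shNizp1#2 over the control shRNA, beside 1331 of 11994 tested genes. Nsd2 did so for shNizp1#2 and shNizp1#1 over empty vector, beside 2253 and 2134 tested genes.

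Of 3 further demethylases, Kdm4d had at most 2 counts in a group and was not tested, and 0 of the other 2 were called in edgeR, where Riox1 alone reached an unadjusted p under 0.05, for shNizp1#2 over shNizp1#1 and over empty vector (609 and 678 of 11994 tested genes did without the block, 1779 and 2253 with it). Kdm4b was at 90.1 ± 32.0, 93.6 ± 38.9 and 77.2 ± 21.8 CPM in the fusion groups with shNizp1#2, shNizp1#1 and the control shRNA, against 85.6 ± 23.2 CPM with empty vector. Riox1, also known as NO66, was at 21.4 ± 1.83, 30.1 ± 2.01 and 23.7 ± 2.57 CPM, against 28.2 ± 6.49 CPM with empty vector, and its shNizp1#2 and shNizp1#1 libraries did not overlap (log2 fold change -0.49 of shNizp1#2 over shNizp1#1 with the block, SE 0.16, adjusted p = 0.149 in edgeR). Of 18 genes for proteins that bind methylated H3K36 or accompany its writing, 0 were called, with a median of -0.02 for the fusion over empty vector. At an unadjusted p under 0.05 there was 1 of 18 in that comparison without the block and 3 of 18 with it, beside 320 and 1319 of 11994 tested genes. Morf4l1, a chromodomain reader, was at 189 ± 23.8, 165 ± 33.5 and 175 ± 26.5 CPM, against 177 ± 14.0 CPM with empty vector. Glyr1, a PWWP-domain protein, was at 178 ± 7.13, 186 ± 12.1 and 185 ± 10.0 CPM, against 181 ± 14.6 CPM. DESeq2 and limma-voom called no gene of these 3 lists either. Among the readers, the highest counts at an unadjusted p under 0.05 in the other comparisons were for shNizp1#1 over empty vector, with 2 of 18 without the block and 5 of 18 with it, beside 749 and 2134 of 11994 tested genes.

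Of 28 other nuclear pore genes, 27 were tested, and with the fusion over empty vector 0 were called, with 15 above and 12 below 0 and a median log2 fold change of 0.01 (range -0.24 to 0.40), beside 1.13 for Nup98. At an unadjusted p under 0.05 there was 1 of 27 without the block and 2 of 27 with it, beside the same 320 and 1319 of 11994 tested genes. With shNizp1#2 over the control shRNA, 24 of 27 lay below 0 without the block, at a median of -0.13, beside -0.0018 over all tested genes. For shNizp1#2 over empty vector and over shNizp1#1 it was 23 and 22 of 27. For shNizp1#1 it was 18 of 27 over the control shRNA and 14 of 27 over empty vector. With the block it was 23, 22 and 22 of 27 for shNizp1#2 over the control shRNA, empty vector and shNizp1#1. For shNizp1#1 the blocked fit gave 21 of 27 over the control shRNA and 15 of 27 over empty vector. The share of all tested genes below 0 was not counted, and the 27 genes share the same libraries. These counts are therefore a description only. With shNizp1#2 over the control shRNA, 0 were called by edgeR, DESeq2 or limma-voom (0 of 27 at an unadjusted p under 0.05, and 2 of 27 with the block, beside 285 and 1331 of 11994 tested genes). The 1 of 27 pore genes called in any edgeR comparison was Pom121, a membrane nucleoporin, at 56.4 ± 8.29 CPM with shNizp1#1 and 78.3 ± 8.99 CPM with empty vector (log2 fold change -0.47, SE 0.11, adjusted p = 0.0306 in edgeR with the block, and 0.521 without it). That fit called 3.45% of all tested genes, so 1 of 27 is near the background. The groups did not overlap. In that comparison DESeq2 with the block called 2 pore genes and limma-voom 1.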

How the data were processed

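The authors deposited raw read counts per gene, 1 column per library. A stranded poly(A) protocol on 1 µg of total RNA and single-end sequencing at 75 nt are recorded, per the labels. Per the submitters' processing notes, tools named are Trimmomatic 0.32, STAR 2.5.3a and featureCounts, with mm10. The sources used here give neither the version and strand setting of the counter nor its annotation. Counts in the Nup98 and Nsd1 rows can include reads of the construct.

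The members and gene lists were chosen with earlier results of these data known. Counts were tested with edgeR 4.0.16 (R 4.3.3, robust quasi-likelihood, filterByExpr, TMM) over all 12 libraries with 1 mean per group, without and with the replicate number as a block, and with DESeq2 1.42.0 and limma 3.58.1 (voom) as alternatives. SEs come from the F statistic. That the number pairs the samples is an inference. All 18 same-number pairs of libraries correlated in their deviations from the group means (r 0.223 to 0.877, median 0.738). Among libraries of other groups, 12 of 12 correlated best with one of their own number. Other pairs had a median r of -0.196. Deviations from a group mean cancel within the group, so this negative value follows in part from the positive ones. The series design speaks of independent experiments, but the labels tie no library to an experiment or an animal. A p-value therefore reflects library-to-library spread, which may not cover differences between animals. In the libraries 3 counts equal 0.417 to 0.837 CPM, a floor for counting error only. Exact permutation tests used scipy 1.17.1, and scripts were tested on simulated data. Beyond the members and Zkscan17, list genes were named where called in any comparison, otherwise the 2 with the highest mean RPKM. For likeness, the nearest 3 genes of Nsd1 and Nup98 and the nearest 1 of each enzyme were named, leaving out predicted and clone names.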

Additional observations from a re-analysis of the deposited data

How the results depend on the processing

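With the replicate block, 2, 2 and 3 members were called for the fusion, shNizp1#1 and shNizp1#2 over empty vector, against 1 each without it. DESeq2 without the block called 2 in each, and unblocked edgeR fits on the 2 groups alone called 0 in each. For shNizp1#1 over empty vector, upper-quartile scaling and no filter on low counts called 2, and leaving out single libraries gave 1 to 2 (2 without shNizp1#1 replicate 3). For shNizp1#2 over empty vector, no filter called 2. In the blocked fit of the fusion over empty vector, 0 were called without experiment 1 and 1 without experiment 3. The block changed no other call of a member. The cause of these changes was not tested.

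Of 754 alternative log2 fold changes over 58 results, 701 kept their direction and side of the threshold. A further 11 gained a call, 15 lost one and 27 changed sign, none of these a called value. The 58 are a selection. Blocked results of Setd2, Kdm2a, Kdm4a and Kdm4c were left out, as were some unblocked ones. For the fusion over empty vector, Kdm2a (-0.00014) gave 0.0043 under RLE, 0.0070 under upper-quartile scaling, 0.0048 in DESeq2 and 0.0029 in the 2 groups alone. With single libraries left out, that comparison ran from -0.19 to 0.15 for Kdm2a, from -0.20 to 0.015 for Setd2 and from -0.20 to 0.058 for Kdm2b. For shNizp1#1 over the control shRNA the ranges were -0.073 to 0.27 for Setd2, -0.064 to 0.36 for Ash1l, -0.11 to 0.25 for Kdm2a and -0.071 to 0.11 for Kdm4c. For shNizp1#2 over the control shRNA they were -0.15 to 0.052 for Nup98, -0.19 to 0.0098 for Nsd1 and -0.21 to 0.019 for Kdm2b. In the blocked fit, Kdm2b with the fusion over empty vector ran from -0.16 to 0.094, and with shNizp1#2 over the control shRNA Nup98 ran from -0.13 to 0.14 and Nsd1 from -0.24 to 0.075. Without experiment 2, blocked values were 0.10 for Kdm2b (fusion over empty vector) and 0.092 for Nup98 (shNizp1#2 over the control shRNA). The lowest member count in a library was 129.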

Other observations

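Levels of 5 of the 6 enzymes, Kdm2b being the exception, correlated positively over the 12 libraries, which share experiments and groups. Pearson's r of log2(CPM + 1) between pairs of these 5 ran from 0.572 (Ash1l and Kdm4a) to 0.881 (Ash1l and Kdm2a), and over the 9 fusion libraries alone from 0.678 (Kdm4a and Kdm4c) to 0.928 (Ash1l and Kdm2a). For Kdm2b, r over the 12 libraries was 0.127 with Kdm4c, 0.0473 with Setd2, -0.0633 with Kdm4a, -0.22 with Kdm2a and -0.368 with Ash1l. With the fusion partners it was -0.518 for Nup98 and -0.428 for Nsd1. These are descriptions without a test.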
